A study of Mus musculus with 2 samples.

Results

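Effector and memory CD8 T cells are the CD8 T cells that have met antigen. Here they were chosen by their transcripts, as single cells with at least 1 transcript of a CD3 gene (Cd3e, Cd3d or Cd3g), of Cd8b1 (the CD8 beta chain) and of Ccl5 (a chemokine that such cells store and release), and with none of Trdc, Cd4, Cd79a, Csf3r and C1qa, which mark gamma-delta T cells, CD4 T cells, B cells, neutrophils and macrophages. The rule found 389 of 11905 cells, 185 in the DT library and 204 in the PBS library. The 338 CD8 T cells that passed the same rule but had no Ccl5 transcript, 176 in DT and 162 in PBS, served for comparison and are called Ccl5-negative below. Both libraries came from CD45-positive, DAPI-negative cells sorted from lungs bearing HKP1 tumours, a mouse lung adenocarcinoma line given by tail vein, and each group was described as 4 mice. In the DT group, diphtheria toxin was used to deplete club cells, the secretory cells of the airway, and the PBS group was the control. Mice of both groups were of the Scgb1a1cre /iDTR strain, in which a Cre driven by the club cell gene Scgb1a1 switches on the toxin's receptor. All received 150000 tumour cells, tamoxifen on days 3 to 7, anti-PD-1 antibody on day 6 and 4 Gy of radiation on each of days 10 to 12. Lungs were taken 24 to 48 h later. The treatment text is the same for both samples and names 2 toxin doses on days 8 and 9, so the group of each library rests on its title and on the design text. The question set by the design is what the lung's immune cells look like with and without club cells under radiation and checkpoint blockade.

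Naive CD8 T cells circulate between blood and lymph nodes with the help of the chemokine receptor CCR7, and the transcription factors TCF-1 (Tcf7) and LEF1 keep them in that state. After antigen contact they acquire granzymes and perforin, which kill target cells, and secrete chemokines and interferon-gamma. Some stay in tissue and carry CXCR6 and inhibitory receptors such as PD-1 (Pdcd1), the target of the antibody given to these mice. Others return to the circulation as memory cells, which in mice carry Ly6C (Ly6c2).

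Each group was 1 library, so no difference between DT and PBS has a replicate check. The intervals given are at 95% and cover counting error alone. The DT library held 6203 cells and 27896059 transcripts counted as unique molecular identifiers (UMIs), and the PBS library 5702 cells and 31089434. The median depth of a member was 5992 UMIs in DT and 6359.5 in PBS, and that of a Ccl5-negative cell 4452.5 in DT and 4820.5 in PBS. Of all cell barcodes, 8 occurred in both libraries, and 1 member carried such a barcode. The sexes of the cells differed between the libraries. By transcripts of Xist and of 4 Y-linked genes, 23 members were called male and 106 female in DT, against 122 male and 5 female in PBS, so treatment and the sex of the mice cannot be told apart. At least 3 UMIs of markers of B cells, neutrophils, macrophages or dendritic cells were seen in 13.5% of members in DT and 13.2% in PBS, and doublets were not removed.

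The label of these cells was checked against its markers. Cd8a, the CD8 alpha chain, had a UMI in 162 of 185 members in DT and in 180 of 204 in PBS. Nkg7, a cytotoxic granule protein, was seen in 96.2% of members in DT and 95.1% in PBS, but also in 72.2% of Ccl5-negative cells in DT and 79.0% in PBS, so it separates both sets by amount more than by presence. Members held Nkg7 at 1790 CPM (UMIs of the gene per 1000000 UMIs of the summed cells) in the DT library and at 1960 CPM in the PBS library, against 749 CPM and 774 CPM in the Ccl5-negative cells of DT and of PBS. Gzmk, a granzyme of early memory cells, was seen in 30 members in DT and 42 in PBS. In the Ccl5-negative cells it had 0 UMIs in DT, which allows up to 3, and 1 UMI in PBS.

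Ccl5 itself, the gene of the rule, lies on chromosome 11 from 83525778 to 83530518 on the minus strand (mouse build GRCm38). Its median was 14 UMIs per member in DT and 20 in PBS, and the highest cell held 437 in DT and 499 in PBS. A single Ccl5 UMI admitted 25 members in DT and 33 in PBS. In B cells, which are not a source of Ccl5, a Ccl5 UMI was found in 2.21% of cells in DT and 3.56% in PBS, and the part of free RNA among the members with 1 UMI was not tested. Those members lay nearest to the Ccl5-negative cells. Dapl1, a naive CD8 marker, was seen in 44.0% of them in DT and 60.6% in PBS, against 10.3% of members with 10 or more Ccl5 UMIs in DT and 8.94% in PBS. In the opposite direction, Gzmb was seen in 16% of the members with 1 Ccl5 UMI in DT and 3.03% in PBS, against 47.7% of those with 10 or more in DT and 39.8% in PBS.

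**Figure D1:**
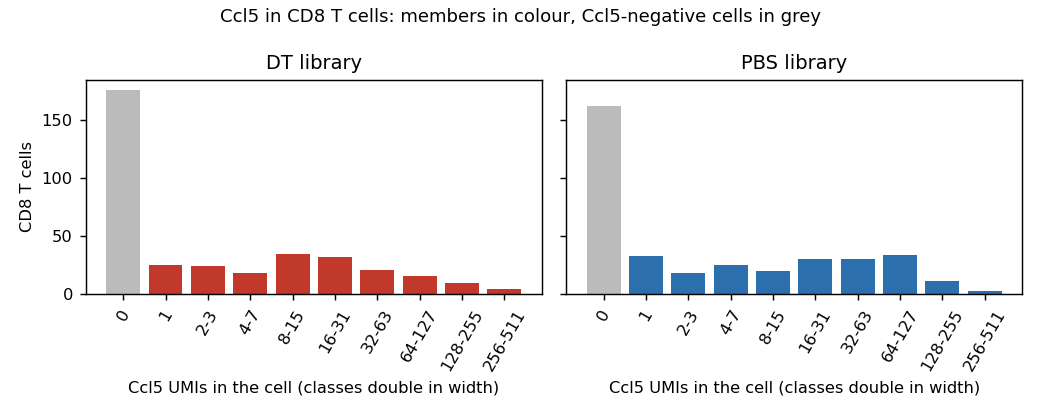
Number of CD8 T cells (vertical axis) by Ccl5 UMIs in the cell (horizontal axis, classes that double in width), DT library left and PBS library right. Grey bars are the 176 Ccl5-negative cells of DT and the 162 of PBS; coloured bars are the members, which spread from 1 UMI to 437 in DT and 499 in PBS.

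Members were 2.98% of all cells in DT (95% Clopper-Pearson interval 2.57 to 3.44) and 3.58% in PBS (3.11 to 4.09), a ratio of 0.834 with an interval from 0.679 to 1.02. They were 11.4% of T cells in DT and 12.4% in PBS, with a ratio of 0.917 (0.748 to 1.13). Of CD8 T cells, 51.2% were members in DT and 55.7% in PBS, with a ratio of 0.919 (0.749 to 1.13). All of these shares were lower in DT, and each interval includes 1. With Cd8a in place of Cd8b1 in the rule, the ratio among all cells was 0.780 and its interval, 0.639 to 0.95, leaves out 1. Within male-called cells that ratio was 0.514 (0.314 to 0.808), and within female-called cells, with 5 members in PBS, it was 3.99 (1.66 to 12.5).

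Against the Ccl5-negative CD8 T cells of the same library, members were higher for most killing genes and lower for most naive genes, in both libraries. A gene was counted as different when it was at least 2-fold higher or lower in both libraries with intervals that leave out 1. Of 2901 genes with enough UMIs, 45 were higher in members (1.55%) and 18 were lower (0.62%). Members were deeper than Ccl5-negative cells, and a deeper cell more readily shows a Ccl5 UMI. CPM values are scaled to depth, but the rule that splits the cells is not. With each cell thinned by random draw to 2000 UMIs before the rule, 38 genes were higher in members, 21 of them among the 45. Lower were 12 genes, 9 of them among the 18. The part of depth in these differences was not tested.

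The genes higher in members included killing genes, receptors and membrane proteins. Gzmb (granzyme B, on chromosome 14) stood at 504 CPM in members and 96.4 CPM in Ccl5-negative cells of DT, and at 610 CPM and 69.0 CPM in those of PBS, which gave log2 ratios of 2.33 and 3.05 with 5 CPM added to both sides. Klrc2, which encodes the activating receptor NKG2C, had log2 ratios of 3.4 in DT and 2.62 in PBS. The serine protease inhibitor gene Serpina3g had 1.43 in DT and 2.37 in PBS, the protease inhibitor gene Ctla2a 1.86 and 2.09, and Gimap7, a GTPase gene of lymphocyte survival, 1.46 and 1.44. Anxa2 (annexin A2) had 1.38 in DT and 2.06 in PBS, Lgals3 (galectin-3) 1.36 and 1.60, S100a6 (a calcium-binding protein) 1.32 and 1.59, and Bhlhe40, a transcription factor of resident and cytokine-producing T cells, 1.35 and 1.45. The size differed most between libraries for Gzma (granzyme A), at 5.84 in DT and 2.10 in PBS, and for Ccl4, a chemokine of activated T cells, at 4.28 and 1.41. In the Ccl5-negative cells of PBS, 178 of the 214 Ccl4 UMIs lay in 1 cell.

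The genes lower in members included genes of the naive list. Ccr9, a gut- and thymus-homing receptor, had log2 ratios of -2.61 in DT and -2.64 in PBS. Igfbp4, a secreted growth-factor binding protein typical of naive T cells, had -1.74 and -2.09, and Dapl1 had -2.06 and -1.69. Lef1 stood at 93.7 CPM in members and 290 CPM in Ccl5-negative cells of DT, and at 102 CPM and 320 CPM in those of PBS. Ccr7 had log2 ratios of -1.41 in DT and -1.88 in PBS, and Klf2, the factor that drives exit from lymph nodes, -1.21 and -1.14. The kinase-like gene Trib2, the adaptor gene Sh3bp5, the factor Klf3, the PI3K inhibitor gene Pik3ip1 and the unnamed loci Gm11346 and A930005H10Rik were between -1.02 and -1.60 in every library.

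By list, all 15 killing genes were higher in members in DT and 14 of 15 in PBS, with medians of 1.20 and 1.33. Over all genes with at least 20 UMIs the median was 0.06 in DT and 0.08 in PBS. Past 2-fold were 9 killing genes in each library, or 60% of the list, against 4.43% of all genes in DT and 5.2% in PBS. Of the 15 naive genes, 14 were lower in members in both libraries, and 7 in DT and 8 in PBS were past 2-fold, where the share of all genes was 2.04% in DT and 2.14% in PBS. The NK receptor genes had medians of 2.56 in DT and 2.07 in PBS, and the inhibitory receptors 0.93 and 1.15. All 16 cell cycle genes were higher in members in both libraries, where 56.2% of all genes were in DT and 57.2% in PBS. Of the 11 chemokine and migration receptors, 7 were higher in DT and 6 in PBS, and in each library 5 were past 2-fold upward and 2 downward. T cell receptor signalling genes had medians of 0.03 in DT and 0.31 in PBS, with none past 2-fold in either. Interferon-stimulated genes were at -0.09 in DT and -0.24 in PBS.

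**Figure D2:**
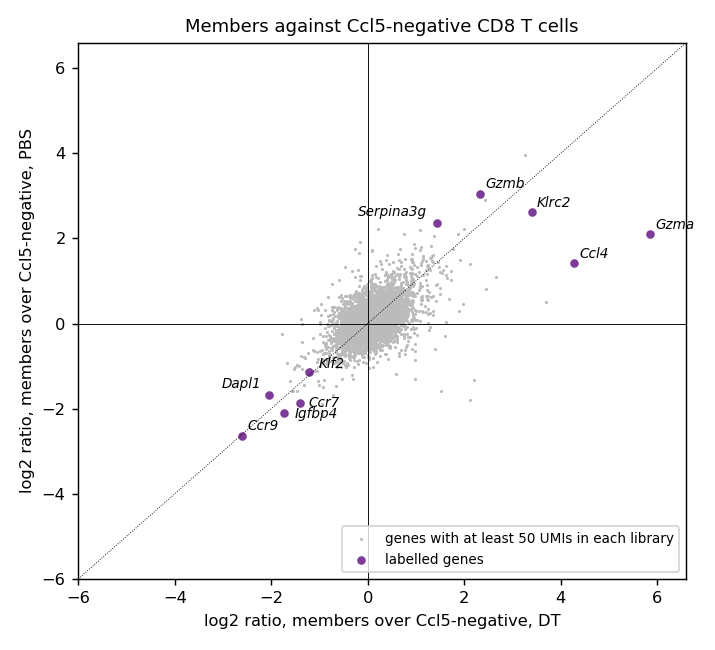
Log2 ratio of members over Ccl5-negative CD8 T cells in the DT library (horizontal axis) and in the PBS library (vertical axis), 1 point a gene, with 5 CPM added; the dotted line marks equal values. Gzmb lies at 2.33 and 3.05 and Ccr9 at -2.61 and -2.64, close to the line, while Gzma, at 5.84 and 2.10, and Ccl4, at 4.28 and 1.41, lie far to the right of it.

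Within the members, those with a transcript of Cxcr6 (the receptor of the chemokine CXCL16, on chromosome 9 from 123806475 to 123811760, plus strand) were set beside those without one. Cxcr6 was seen in 68 members in DT, or 36.8% (29.8 to 44.1), and in 109 in PBS, or 53.4% (46.3 to 60.4). The classes are cut by the presence of a UMI at full depth, so a cell with a low level can fall into the other class. Members with Cxcr6 had a median depth of 6704.5 UMIs in DT and 6519 in PBS, and members without it 5549 in DT and 6165 in PBS.

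Inhibitory receptors and effector cytokines were seen more often in the members with Cxcr6. Pdcd1 was seen in 50% of them in DT and 55.0% in PBS, against 9.40% of the members without Cxcr6 in DT and 18.9% in PBS. Lag3, a further inhibitory receptor, was seen in 38.2% of the members with Cxcr6 and 7.69% of those without it in DT, and in 45.9% and 8.42% in PBS. Havcr2 (TIM-3) was seen in 20.6% and 2.56% in DT, and in 22% and 3.16% in PBS. Ifng (interferon-gamma) followed the same division, at 26.5% and 5.13% in DT and 35.8% and 13.7% in PBS. Gzmk was seen in 27.9% of the members with Cxcr6 and 9.40% of those without it in DT, and in 25.7% and 14.7% in PBS. At least 2 of 6 mitotic genes were seen in 25% and 8.55% in DT, and in 18.3% and 13.7% in PBS.

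Tcf7 ran the other way, with 42.6% of the members with Cxcr6 and 71.8% of those without it in DT, and 35.8% and 73.7% in PBS. Lef1 was seen in 25% and 49.6% in DT, and in 22.9% and 53.7% in PBS. Cxcr3, the receptor for the interferon-induced chemokines CXCL9 and CXCL10, was common in both classes, at 47.1% and 35.9% in DT and 42.2% and 51.6% in PBS. Ly6c2 was seen in 75.2% of the members without Cxcr6 in DT and 73.7% in PBS, but within the members with Cxcr6 the libraries stood apart, at 54.4% in DT and 34.9% in PBS.

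**Figure D3:**
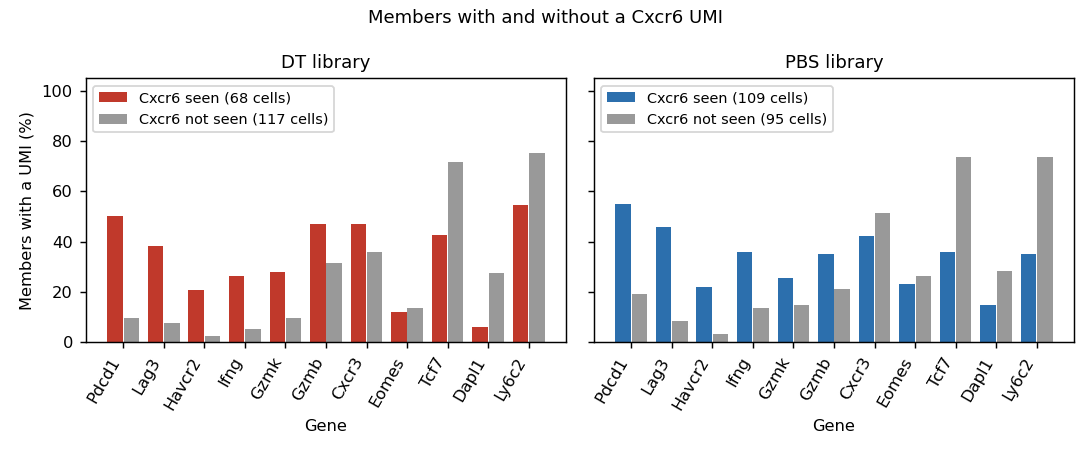
Share of members with a UMI of each gene (vertical axis, %, from 0), DT library left and PBS library right, with coloured bars for members in which Cxcr6 was seen and grey bars for the other members. Pdcd1 is at 50% of the members with Cxcr6 and 9.40% of the others in DT, and at 55.0% and 18.9% in PBS, while Tcf7 is at 42.6% and 71.8% in DT and 35.8% and 73.7% in PBS.

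Between DT and PBS, members differed at few genes. A gene was counted when it had 50 UMIs or more over both libraries, reached 50 CPM in either, differed 1.5-fold or more and had 1 outside its interval. The fold was taken on the CPM themselves, while log2 ratios have 5 CPM added to both sides and are nearer to 0 for low genes. Of 3151 genes, 93 were higher in DT (2.95%) and 65 lower (2.06%). Many UMIs of a gene can come from 1 cell: for 7 of the higher genes, 50% or more of the DT UMIs lay in 1 cell, and for 4 of the lower genes the same held for PBS. With the top cell of each gene left out of each library, 75 of 2965 genes were higher (2.53%) and 67 lower (2.26%), and these held 67 of the 93 and 53 of the 65. As a second measure, each cell was thinned to 2000 UMIs, which left out 9 members in DT and 12 in PBS, and cells with a UMI were counted. On that measure 62 of 4709 genes were higher in DT (1.32%) and 75 lower (1.59%). Both measures picked 11 genes higher in DT, among them Ly6c2, and 19 lower, among them Cxcr6 and Gzmk. The 11 include Xist, and the 19 include the Y-linked genes Ddx3y and Eif2s3y and the other-cell genes Igkc and Fcer1g.

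Among the genes of homing and residency, Cxcr6 was lower in DT members, and the memory gene Ly6c2 was higher. Cxcr6 had 184 UMIs in DT and 518 in PBS, or 143 CPM and 345 CPM, a ratio of 0.414 (0.348 to 0.490) and a log2 ratio of -1.25. It was seen in 68 of 185 members in DT and 109 of 204 in PBS, and at 2000 UMIs in 21.0% and 32.8%, against 0.366% and 0.246% of B cells. The highest cell held 8 Cxcr6 UMIs in DT and 24 in PBS, and without the top cells the log2 ratio was -1.24. Ly6c2, on chromosome 15, had 1123 UMIs in DT and 694 in PBS, or 870 CPM and 462 CPM, a ratio with an interval from 1.71 to 2.07. At 2000 UMIs it was seen in 58.0% of members in DT and 37.0% in PBS, a ratio of 1.57 (1.15 to 2.15), against 1.10% and 2.05% of B cells. Without thinning the ratio of the Ly6c2 shares was 1.28 (0.979 to 1.67). At 1000 UMIs per cell the ratio of the Cxcr6 shares was 0.604, with an interval from 0.355 to 1.006. Reads of its close copy Ly6c1, with 21 UMIs in DT and 10 in PBS, could be exchanged with it.

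Ccr7, the survival receptor Il7r and Tcf7 had intervals that include 1 by the thinned shares, with 18.2% in DT and 14.1% in PBS for Ccr7, 48.9% and 39.6% for Il7r, and 33.0% and 33.9% for Tcf7. Of the 14 naive and homing genes measured, 9 were higher in DT and 5 lower, none past 1.5-fold, with a median of 0.15. Over all genes with at least 20 UMIs the median was 0.01, and 51.8% were higher in DT. Of the 10 residency genes, 5 were higher and 5 lower. Past 1.5-fold were Cxcr6, lower in DT, and Xcl1, higher in DT, where 4.05% of all genes were past it upward and 2.74% downward. The integrin gene Itgae (CD103) was seen at 2000 UMIs in 2.84% of members in DT and 4.69% in PBS, and the circulating effector genes Klrg1 and Cx3cr1 in 2.27% and 2.27% in DT and 2.08% and 6.25% in PBS. All of these intervals include 1.

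**Figure D4:**
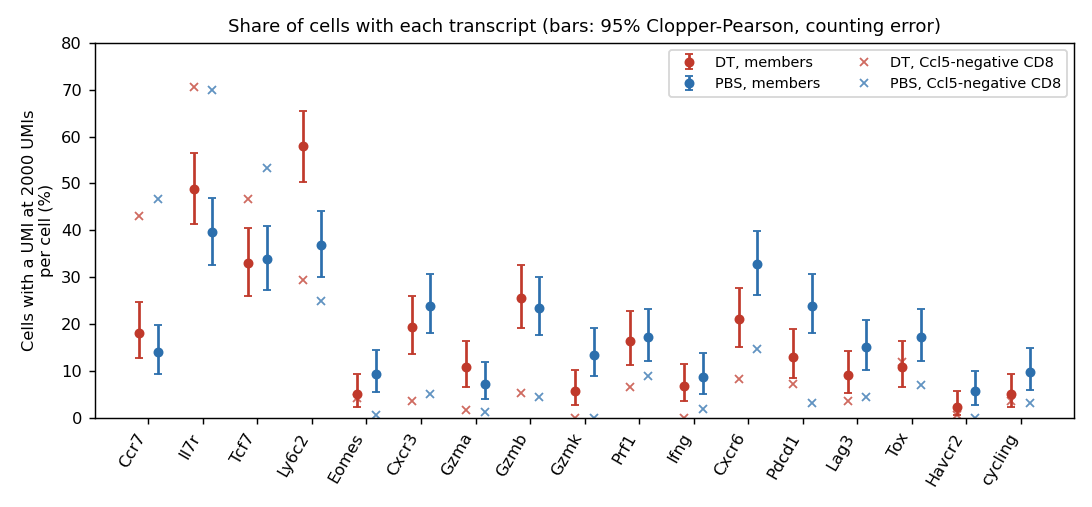
Share of cells (vertical axis, %) with a UMI of each gene after each cell was thinned to 2000 UMIs, DT left of PBS for each gene; "cycling" is at least 2 of 6 mitotic genes. Dots with 95% Clopper-Pearson bars are members and crosses are Ccl5-negative CD8 T cells: Ly6c2 is higher in DT members, and Gzmk, Cxcr6 and Pdcd1 lower, with ratio intervals that leave out 1.

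Granzyme genes differed in direction between DT and PBS members. Gzma (chromosome 13, 113093825 to 113100981, minus strand) had 875 UMIs in DT and 208 in PBS, or 678 CPM and 138 CPM, a ratio of 4.90 (4.21 to 5.72). The number of cells with Gzma was nearly the same, at 25 members in DT and 26 in PBS, so the difference lay in the amount per positive cell. The top cell held 171 UMIs in DT and 60 in PBS, and without the top cells the log2 ratio was 2.41. Gzmk, its neighbour on chromosome 13, went the other way, with 55 UMIs in DT and 135 in PBS, a ratio of 0.474 (0.340 to 0.654). At 2000 UMIs Gzmk was seen in 5.68% of members in DT and 13.5% in PBS, a ratio of 0.420 (0.181 to 0.899). The interval includes 1 at other depths, with a ratio of 0.652 (0.252 to 1.59) at 1000 UMIs and 0.788 (0.476 to 1.29) without thinning. Gzmb had 651 UMIs in DT and 916 in PBS, but 272 of the PBS UMIs lay in 1 cell, and the log2 ratio changed sign to 0.04 without the top cells. It was seen in 25.6% of members in DT and 23.4% in PBS at 2000 UMIs.

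Prf1 (perforin) was seen in 16.5% of members in DT and 17.2% in PBS, and Nkg7 had a log2 ratio of -0.13. Serpinb9, an inhibitor that shields T cells from their own granzyme B, had 114 UMIs in DT and 65 in PBS, spread over 69 and 43 cells, with a log2 ratio of 0.95. Fasl, the death ligand, had 38 UMIs in DT and 70 in PBS, with a log2 ratio of -0.58 and an interval of the ratio from 0.414 to 0.951. Of the 15 killing genes, 9 were higher in DT and 6 lower, and the median was 0.05. Gzma and Serpinb9 were past 1.5-fold upward, Gzmk and Fasl downward, or 13.3% of the list each way, against 4.05% of all genes upward and 2.74% downward. Cells with Gzma mostly also held Gzmb, in 19 of 25 cells in DT and 16 of 26 in PBS.

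**Figure D5:**
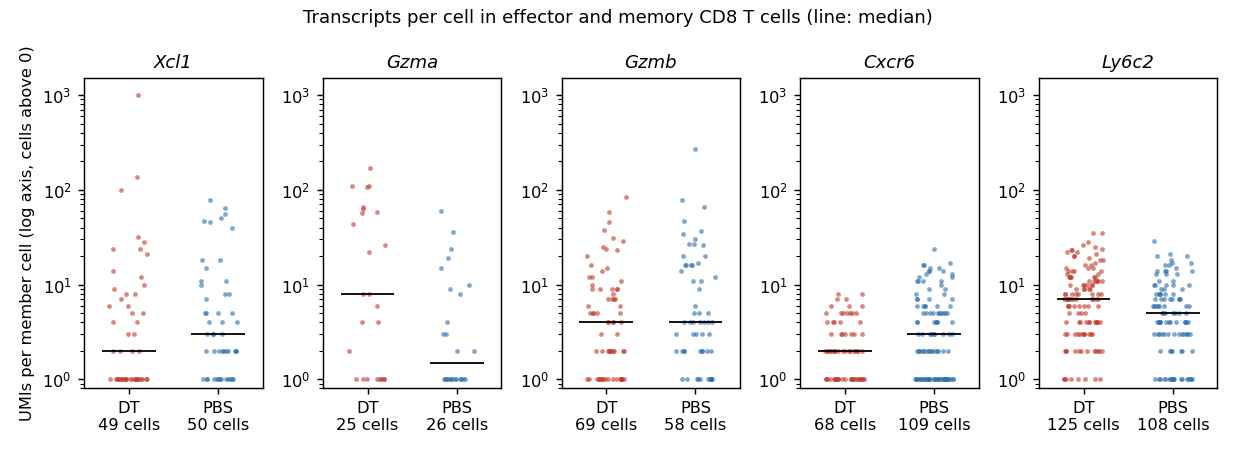
UMIs per member cell (vertical log axis, cells above 0) for Xcl1, Gzma, Gzmb, Cxcr6 and Ly6c2, DT left of PBS, 1 point a cell, with the median of the positive cells as a line. A single DT cell holds 1009 Xcl1 UMIs and a single PBS cell 272 Gzmb UMIs; the Cxcr6 values end at 8 in DT and 24 in PBS.

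Among secreted factors, Xcl1, the chemokine that draws cross-presenting dendritic cells, showed how far 1 cell can set a sum. It had 1506 UMIs in DT and 565 in PBS, a ratio of 3.10 (2.82 to 3.42), but 1009 of the DT UMIs lay in 1 cell of 18492 UMIs, and the log2 ratio was 0.25 without the top cells against 1.62 with them. The number of cells with Xcl1 was 49 in DT and 50 in PBS. Ccl4 was lower in DT, with 491 UMIs there and 950 in PBS, a log2 ratio of -0.73. A single DT cell held 233 of them, and without the top cells the log2 ratio was -1.43. Ccl4 was seen in 44 members in DT and 66 in PBS, and its partner Ccl3 in 20 and 48. Ifng had 115 UMIs in DT and 139 in PBS, in 24 and 52 cells. At 2000 UMIs Ifng was seen in 6.82% of members in DT and 8.85% in PBS, and the ratio of 0.770 (0.336 to 1.71) does not show a difference at that depth. Without thinning the ratio was 0.509 (0.3 to 0.841). Of the 11 secreted factors measured, 4 were higher in DT and 7 lower, with a median of -0.05, or -0.26 over the 10 left when top cells were removed.

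Pdcd1, the target of the antibody, was seen in a smaller share of DT members. It was seen in 45 members in DT and 78 in PBS, and at 2000 UMIs in 13.1% and 24.0%, a ratio of 0.545 (0.316 to 0.919), against 0.244% of B cells in DT and 0 of 1222 in PBS, which allows up to 0.245%. Its summed UMIs, 237 in DT and 317 in PBS, differed less, with a ratio interval from 0.732 to 1.03, and at 1000 UMIs per cell the ratio of the shares was 0.815 (0.440 to 1.49). The top cell held 25 UMIs in DT and 16 in PBS. In the Ccl5-negative cells Pdcd1 was seen in 7.19% of cells in DT and 3.21% in PBS, with a ratio of 2.24 (0.735 to 8.12). Lag3 was seen in 9.09% of members in DT and 15.1% in PBS, Tox, the factor of chronically stimulated T cells, in 10.8% and 17.2%, Havcr2 in 2.27% and 5.73%, and Tigit in 0.568% and 2.08%. Each was lower in DT, and each of these intervals includes 1. Of 11 inhibitory receptor genes, 3 were higher in DT and 8 lower, with a median of -0.20, where 51.8% of all genes were higher. In the Ccl5-negative cells 5 of 7 were higher in DT, with a median of 0.28, where 53.4% of all genes were higher. Past 1.5-fold were Btla, a receptor of the ligand HVEM, at 0.63, and Klrc1, which encodes the inhibitory receptor NKG2A, at -0.53, and without the top cells 0 of the 10 measured were past it in either direction. Reads of Klrc1 and Klrc2 may be exchanged between these close copies.

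Costimulatory genes were 7 higher and 4 lower of 11, with a median of 0.12, where 51.8% of all genes were higher. Past 1.5-fold upward were 3, or 27.3%, against 4.05% of all genes. Without the top cells 2 were past it upward (18.2%) and 1 downward (9.09%), against 3.62% and 2.88% of all genes. Tnfrsf4 (OX40) had 197 UMIs in DT and 113 in PBS, a log2 ratio of 0.98, from 32 and 30 cells. Icos had 98 UMIs in DT and 76 in PBS, a log2 ratio of 0.54, and Il2ra (the high-affinity interleukin-2 receptor chain) 39 and 19, a log2 ratio of 1.00. These genes are also strong in regulatory T cells: Foxp3 was seen in 6 members in DT and 2 in PBS, and all 6 measured genes of the regulatory or CD4 T cell list were higher in DT, with a median of 0.89. Together the 7 genes of that list reached 452 CPM in DT members and 264 CPM in PBS members, and none of them was at 0. By cells the direction was the other way: without thinning, 38.4% of members in DT and 46.1% in PBS held a UMI of the list. The part of such cells in these values was not tested. Cd27, a costimulator that effector cells lose, was seen in 106 members in DT and 153 in PBS, with a log2 ratio of -0.55, short of the threshold.

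Among transcription factors and memory genes, Eomes, a factor of memory cells, was lower in DT, with 37 UMIs there and 81 in PBS, in 24 and 50 cells, and a log2 ratio of -0.81. Its thinned share was 5.11% in DT and 9.38% in PBS, with a ratio interval from 0.216 to 1.28. Bhlhe40 had 123 UMIs in DT and 85 in PBS, a log2 ratio of 0.70. Ikzf2 (Helios) had 187 and 121, a log2 ratio of 0.81, but in 41 cells in DT and 59 in PBS. Id2, Runx3 and Tbx21, factors of effector differentiation, had log2 ratios between -0.32 and -0.17. Of 12 memory genes, 8 were higher in DT and 4 lower, with Ly6c2 and Il18rap, a chain of the interleukin-18 receptor, past 1.5-fold upward (16.7% of the list) and Eomes downward (8.33%), against 4.05% and 2.74% of all genes. Ly6a (Sca-1) was seen at 2000 UMIs in 50.6% of members in DT and 28.6% in PBS. Bcl2, the survival factor, had 673 UMIs in DT and 550 in PBS, a log2 ratio of 0.51. Of 14 cytokine receptor genes, 10 were higher in DT, with Il18rap and Il6ra past 1.5-fold upward (14.3%) and Ifnar2, a type I interferon receptor chain, downward (7.14%). Of 10 NK receptor genes, 3 were higher in DT and 7 lower, with a median of -0.11. Klra7 was past 1.5-fold upward and Klrc1 downward, and Klra genes are near copies whose UMIs may be exchanged.

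Of the 16 cell cycle genes, 3 were lower in DT members past 1.5-fold and none higher, or 18.8%, against 2.74% of all genes downward. Mki67, the proliferation antigen, had 100 UMIs in DT and 190 in PBS, a log2 ratio of -0.67. Tyms, which makes thymidylate for DNA synthesis, had 56 and 109, a log2 ratio of -0.68, and Ccnb2 (cyclin B2) 57 and 102, a log2 ratio of -0.57. Over the list 5 were higher in DT and 11 lower, with a median of -0.16, or -0.31 without the top cells. In the Ccl5-negative cells 12 of 16 were higher in DT, with a median of 0.17 and 1 past 1.5-fold in each direction. Of all genes there, 53.4% were higher, 3.54% past 1.5-fold upward and 2.49% downward. Among the genes lower in DT members were 4 histone genes: Hist1h1b had a log2 ratio of -1.43, Hist1h2ae -1.10, Hist1h2an -0.97 and Hist1h2ap -0.97, with Hist1h2ap at 382 CPM in DT and 753 CPM in PBS. Histone genes of the same class are near copies, so UMIs may be exchanged among them. Cells with at least 2 of 6 mitotic genes were 5.11% of members in DT and 9.90% in PBS at 2000 UMIs, a ratio of 0.517 with an interval from 0.206 to 1.20, and 14.6% in DT and 16.2% in PBS without thinning.

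Of the 11 p53 target genes measured, which respond to DNA damage, 8 were higher in DT and 3 lower, with a median of 0.31. Past 1.5-fold were 4, or 36.4%, all higher in DT, against 4.05% of all genes upward and 2.74% downward. Bbc3 (PUMA, which promotes cell death) had 79 UMIs in DT and 50 in PBS, in 56 and 34 cells. Phlda3, a brake on AKT signalling, had 54 and 27, in 34 and 18 cells, with a log2 ratio of 1.03. In male-called members Phlda3 stood at 15.4 CPM in DT, from 2 UMIs, and at 17.1 CPM in PBS. Female-called members of DT were at 47.2 CPM. Zmat3, an RNA-binding protein, had a log2 ratio of 0.78, and Ei24 one of 0.55. Cdkn1a (p21) and Mdm2, the best known targets, had log2 ratios of 0.31 and -0.19 with intervals that include 1. In the Ccl5-negative cells 6 of 10 were higher in DT, or 60%, against 53.4% of all genes there, with a median of 0.21. Past 1.5-fold upward were 2 of the 10, or 20%, against 3.54% of all genes there, and none was past it downward. Both groups were irradiated.

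Glucocorticoid-responsive and clock genes were 8 higher and 1 lower of 9, with a median of 0.43 in members and 0.50 in Ccl5-negative cells. In members 2 were past 1.5-fold upward, or 22.2%. Of all genes 51.8% were higher in DT members and 4.05% were past 1.5-fold upward. In the Ccl5-negative cells 7 of 8 were higher, where 53.4% of all genes were. Per1, a clock gene that glucocorticoids also induce, had 44 UMIs in DT and 13 in PBS, in 35 and 13 cells, with a log2 ratio of 1.52. Tsc22d3 (GILZ) had 313 and 251, with a log2 ratio of 0.53. The hour of harvest of each group is not given in the labels. Of 15 immediate early genes, 11 were higher in DT. Fos, Egr1, Dusp1 and Zfp36 were past 1.5-fold, or 26.7%, against 4.05% of all genes. A single DT cell held 36 of the 119 Dusp1 UMIs and 34 of the 151 Zfp36 UMIs. Without the top cells 8 of 14 were higher and 1 was past 1.5-fold upward, where 3.62% of all genes were. Interferon-stimulated genes were 11 higher and 10 lower of 21, with Ifit3, an antiviral effector, past 1.5-fold upward and a median of 0.05. Ifi27l2a, an interferon-induced gene, was lower in DT at 579 CPM against 867 CPM in PBS, a log2 ratio of -0.58, short of 1.5-fold. Glycolysis genes had a median of -0.03, mitochondrial genome genes 0.02, T cell receptor signalling genes -0.05 and chemokine and migration receptors -0.02, and Cxcr6 was the single gene of these lists past 1.5-fold.

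Several of the highest ratios belonged to genes of myeloid cells, with many of the UMIs in 1 cell. Chil3, a chitinase-like protein of macrophages and neutrophils, had 133 UMIs in DT and 11 in PBS, a log2 ratio of 3.13, but 111 of the DT UMIs lay in 1 of 7 positive cells. Tgfbi (a matrix protein, 1.97), Ccrl2 (a chemerin receptor, 1.36), Ccl6 (a myeloid chemokine, 1.35), Il1b (interleukin-1 beta, 1.13) and Cxcl2 (a neutrophil chemokine, 2.03) each had 37.3% or more of their DT UMIs in 1 cell. Il1b was seen in 40 members in DT and 31 in PBS, and Cxcl2 in 29 and 9. Without the top cells their log2 ratios were 0.79 for Il1b and 1.64 for Cxcl2. With thinned cells, Cxcl2 was seen in 5.11% of members in DT and 1.56% in PBS, against 5.74% and 2.37% of B cells. Il1b was seen in 8.52% of members in DT and 6.25% in PBS, against 6.59% and 4.58% of B cells. The part of free RNA in these values was not tested. S100a8 and S100a9, which mark neutrophils, had 51 of 67 and 102 of 135 DT UMIs in 1 cell, and their log2 ratios of 1.64 and 1.79 came to 0.03 and 0.01 without the top cells. Among lower genes, Cxcl9, an interferon-induced chemokine of myeloid cells, had 91 of its 168 PBS UMIs in 1 cell. Summed over lists, the 8 neutrophil markers stood at 204 CPM in DT members and 48.6 CPM in PBS members, with 0 and 2 of them undetected, and the 10 macrophage or monocyte markers at 370 CPM and 500 CPM, with 0 and 1 undetected. The 10 B cell markers stood at 129 CPM in DT and 194 CPM in PBS. The 7 NK cell markers stood at 241 CPM in DT and 339 CPM in PBS, with Fcer1g at a log2 ratio of -0.74, and the 7 gamma-delta T cell markers at 44.2 CPM and 98.5 CPM, with Tcrg-C2 at -1.68. The 8 epithelial markers stood at 10.8 CPM in DT and 54.6 CPM in PBS. Without the cells that held Ncr1, Tyrobp or gamma-chain UMIs, 33 in DT and 52 in PBS, the log2 ratio of Cxcr6 was -1.08 and that of Gzmk -1.0. Without the cells with 3 or more UMIs of B cell or myeloid markers those values were -1.26 and -0.97.

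The other genes with the largest ratios were of mixed kinds. Cd81, a tetraspanin, had 134 UMIs in DT and 27 in PBS, a log2 ratio of 2.24, in 19 and 14 cells. It was 0.80 without the cells with B cell or myeloid markers, and at 2000 UMIs Cd81 was seen in 43.6% of B cells in DT and 50.1% in PBS. Penk, which encodes the opioid precursor proenkephalin, had 224 and 76, a log2 ratio of 1.68, in 17 and 8 cells. For Penk it was 0.28 without the cells with B cell or myeloid markers and 1.19 without the cells with a Foxp3 UMI. The predicted gene Gm21887 had 275 and 147, a log2 ratio of 1.08, in 116 and 86 cells. Lower in DT were Pou2f2 (the factor OCT2) at -1.18, Kif13b (a kinesin) at -1.08, Nudt5 (a nucleotide hydrolase) at -0.96, Rtf2 (a replication termination factor) at -0.91 and the pseudogene Slc2a4rg-ps at -0.89. Each was spread over many cells, from 19 to 46 members in DT and 33 to 80 in PBS.

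Because the libraries differed in sex, members of the same called sex were also set side by side, first without thinning. Male-called members had a median depth of 5505 UMIs in DT and 7092 in PBS. Cxcr6 was seen in 6 of the 23 male-called members in DT, or 26.1% (10.2 to 48.4), and in 71 of the 122 in PBS, or 58.2% (48.9 to 67.1), and the 106 female-called members of DT were at 41.5% (32 to 51.5). Ly6c2 was seen in 73.9% of male-called members in DT (51.6 to 89.8) and 51.6% in PBS (42.4 to 60.8), with female-called members of DT at 67.9%. In male-called members the log2 ratio of Cxcr6 was -1.67, from 14 UMIs in DT and 373 in PBS, against -1.25 in all members. Gzma did not keep its direction. It had 1 UMI in the 23 male-called members of DT, against 64 UMIs in 17 of the 122 in PBS, a log2 ratio of -2.37. In DT, 525 of the 875 Gzma UMIs lay in female-called members. Pdcd1 was seen in 3 of the male-called members in DT, or 13.0%, and in 57 in PBS, or 46.7%, and in 31.1% of the female-called members of DT. With 5 female-called members in PBS, the comparison could not be made in that sex.

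In the Ccl5-negative CD8 T cells, 100 of 3006 genes were higher in DT (3.33%) and 87 lower (2.89%). Of the 93 genes higher in DT members 14 were also higher in DT in the Ccl5-negative cells, or 15.1% of the members' genes and 14.0% of the others', and 10 were lower in both, or 15.4% and 11.5%. In those cells Cxcr6 had 56 UMIs in DT and 65 in PBS, a log2 ratio of -0.14, against -1.25 in members. By share of cells, Cxcr6 was lower in DT in both cell sets. Without thinning it was seen in 14.2% of Ccl5-negative cells in DT and 26.5% in PBS, a ratio of 0.535 (0.313 to 0.896). In members that ratio was 0.688 (0.501 to 0.940). With thinned cells it was 0.569 (0.271 to 1.15) in Ccl5-negative cells and 0.641 (0.415 to 0.977) in members. Ly6c2 had 333 UMIs in the Ccl5-negative cells of DT and 318 in those of PBS, a log2 ratio of 0.13, against 0.91 in members. Whether these ratios differ between both cell sets was not tested.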

How the data were processed

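The authors deposited, for each library, log2 values per gene and cell of 10x Genomics 3′ libraries, which tested as log2(CPM + 1): each cell's values undid to whole UMIs within 1% in every case. The submitters' processing notes name STAR, Partek, Seurat and mm10; those sources give no versions, roles or cell filters. The UMIs were recovered and summed over members or over Ccl5-negative cells (Python 3.11.15, NumPy 2.4.6, SciPy 1.17.1, pandas 2.3.3). Ratios carry exact conditional intervals and shares exact Clopper-Pearson intervals at 95%, for counting error only. With 1 library a group no test was made. Shares compared between DT and PBS members were taken after thinning cells to 2000 UMIs unless said otherwise. Other shares used all UMIs of a cell. Sex was called from Xist and 4 Y-linked genes. No further cell filter and no doublet caller was applied. Genes named are the 12 highest and 12 lowest past each threshold, without Xist, Y-linked, immunoglobulin and T cell receptor genes and markers of other cells, plus genes of 20 state and 10 other-cell lists; genes of the rule were left out of list counts, and lists counted genes with at least 20 UMIs. Members and lists were chosen with earlier results of these data known. Some genes that this rule names are not reported here. The scripts were tested on simulated data. Alternatives changed the fold, minimum UMIs, added CPM, scaling (TMM or median of ratios), depth, gate and cells left out; those without B cell or myeloid markers, without Foxp3 and without top cells were chosen after seeing the data. Gene positions are from GENCODE (GRCm38).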

Additional observations from a re-analysis of the deposited data

Results flagged for a closer look

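For 4 genes, the DT to PBS ratio was at least 1.5 in opposite directions in members and in Ccl5-negative CD8 T cells. The difference between both cell sets was not tested. Xcl1 had a log2 ratio of 1.62 in members and -2.31 in Ccl5-negative cells; 1 DT member held 1009 of 1506 UMIs, and 1 Ccl5-negative cell of PBS held 548 of 1210. Crtam, an adhesion receptor of activated CD8 T cells, had 0.61 in members and -0.91 in Ccl5-negative cells, and 27 of its 90 UMIs in DT members lay in the same cell as the 1009 Xcl1 UMIs. Cst3 (cystatin C) had 0.87 and -0.92, with 199 of 526 UMIs in 1 DT member and 159 of 468 in 1 Ccl5-negative cell of PBS. Hist1h2ap had -0.97 and 1.10, with 158 of 372 UMIs in 1 Ccl5-negative cell of DT, and in members it kept its direction without the top cells, at -1.07.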

How the results depend on the processing

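No paired analysis was possible because each group was 1 library, and for the same reason no replicate could be left out. Scaling by TMM or median of ratios shifted all log2 ratios by -0.02 or -0.04, and no named gene with the largest ratios changed direction with it; the median of mitochondrial genome genes turned to -0.02 with the median of ratios. At 2-fold, 19 genes were higher in DT and 14 lower, in place of 93 and 65. Thinning every cell to 2000 UMIs before the gate left 26 higher, 5 of them among the 93, and 64 lower, 6 of them among the 65. Members with at least 2 Ccl5 UMIs gave 100 lower, and leaving out the 5% of members with the most UMIs gave 99 lower. Male-called cells, 23 members in DT and 122 in PBS, gave 155 higher and 283 lower, 16 and 27 of them shared. For members over Ccl5-negative cells, 45 higher and 18 lower genes came to 6 and 5 at 3-fold, 7 and 2 in male-called cells, and 76 and 29 with the mean of single-cell CPM. The DT to PBS ratio of the share of members among all cells was 0.514 in male-called cells (0.314 to 0.808) and 3.99 in female-called cells. In female-called cells it was 2.56 among T cells and 2.99 among CD8 T cells, from 5 PBS members. Without cells with Ncr1, Tyrobp or gamma-chain UMIs the ratio among T cells was 1.01. The ratio for Tcf7 was 0.973 at 2000 UMIs, 1.14 at 1000 and 1.14 without thinning, and for Itgae 0.606 at 2000 UMIs and 1.21 without thinning, each with an interval that includes 1. Gene values were not computed in female-called cells.

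Among the genes with the largest ratios, directions turned for 12. Gzmb, which did not pass the threshold between DT and PBS, turned to 0.04 without the top cells. In male-called cells the DT to PBS log2 ratio was -1.31 for Ccl6, -2.14 for Ccrl2, -2.52 for Cd81, -1.44 for Chil3, -0.18 for Dusp1, -2.37 for Gzma, -1.09 for Il1b, -0.86 for Tgfbi and -3.42 for Xcl1; members over Ccl5-negative cells came to -0.11 for Bhlhe40 and -0.21 for Gzma. With thinned cells it was -0.00799 for Ccrl2, -0.50 for Chil3, -0.50 for Dusp1, -0.0339 for Il1b, 0.28 for Kif13b and -0.997 for Tgfbi. Without cells with B cell or myeloid markers it was -0.84 for Ccrl2, -0.54 for Chil3 and 0.36 for Cxcl9, and without cells with Ncr1, Tyrobp or gamma-chain UMIs -0.14, -0.47 and 0.29. Without the 5% of members with the most UMIs it was 1.18 for Cxcl9 and -0.22 for Xcl1. The cause was not tested. Depth limits what low genes show: a count of 0 allows up to 3 UMIs.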
